A study of Rattus norvegicus with 27 samples.

Results

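DNA methylation was compared between rats of the CRL colony on high and on low salt, which are 8 of the 27 samples of the series. Both groups are SS rats, the Dahl salt-sensitive strain, which becomes hypertensive when fed much salt, and each library is the renal outer medulla of 1 rat. The CRL_HS rats (n = 4) were fed a purified diet, AIN-76A, that held 4% NaCl, beginning at 6 weeks of age and lasting 14 days. The CRL_LS rats (n = 4) ate the non-purified diet 5L2F with 0.75% NaCl until 8 weeks of age. Salt and the base of the diet therefore changed together and cannot be told apart, and animal numbers of the groups form separate runs. Rats of the MCW colony, all on AIN-76A, are quoted beside the CRL values only as levels from other animals: MCW_HS (4% NaCl for 14 days from 6 weeks, n = 4) and MCW_LS (0.4% NaCl until 8 weeks, n = 3). Other MCW rats, from a second experiment of the series, are quoted in the same way at the named regions. They had 4% NaCl for 7 days with a scrambled oligonucleotide at 4 mg per kg (n = 4) or 0.4% NaCl (n = 4). The sex of the rats and the diet of CRL_HS rats before 6 weeks are not given in the labels. The members were taken from the labels and not by a measured value, although earlier results of these data were known when they were chosen.

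Methylation of cytosine at CpG dinucleotides is laid down by DNA methyltransferases and removed after oxidation by TET enzymes or by loss at replication. CpG-rich promoters are as a rule unmethylated, gene bodies and intergenic DNA are as a rule methylated, and imprinted genes carry the mark on the copy from one parent. The outer medulla holds the thick ascending limbs, which reabsorb salt from the filtrate. Reduced representation bisulfite sequencing reads CpG-rich fragments: a C read counts as methylated and a T read as unmethylated. Levels are the share of C reads in percent, and differences are in percentage points. A tissue level is a mean over the cells present, so that a change in cell make-up and a change within cells cannot be told apart, and the tables hold no expression with which the tissue label could be checked.

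Printed here are 3 stretches of DNA, each shown as the 250 bases before a gene start in the RefSeq assembly GRCr8, 5′ to 3′ along the gene. Capitals mark the CpGs measured in every rat, which are 14 of 21 in Rn45sl1, 8 of 15 in Tbx1 and 6 of 16 in Gramd2a. Rn45sl1 is a copy of the ribosomal RNA precursor gene. Of the 24 positions that passed the test at single sites, 23 lay within 200 kb of a match to its start. None of them lies in the stretch shown, and the nearest to any match was 865 bases away. Tbx1 encodes a T-box transcription factor of development, and Gramd2a encodes a protein of contacts between the endoplasmic reticulum and the cell membrane. Tbx1 lies in a region named for a lower level on high salt, and the Gramd2a promoter had the smallest p of those that RefSeq gives a gene symbol other than a LOC number. The CpG spacing places them in the rn5 positions of the deposited table at chr1:13501507-13501756 (plus strand), chr11:89653498-89653747 (plus strand) and chr8:64278787-64279036 (plus strand).
Rn45sl1: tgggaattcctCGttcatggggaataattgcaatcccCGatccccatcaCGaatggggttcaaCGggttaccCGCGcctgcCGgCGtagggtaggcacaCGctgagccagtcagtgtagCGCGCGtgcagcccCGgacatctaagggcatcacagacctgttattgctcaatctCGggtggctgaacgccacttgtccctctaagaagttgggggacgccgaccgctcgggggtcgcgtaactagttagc
Tbx1: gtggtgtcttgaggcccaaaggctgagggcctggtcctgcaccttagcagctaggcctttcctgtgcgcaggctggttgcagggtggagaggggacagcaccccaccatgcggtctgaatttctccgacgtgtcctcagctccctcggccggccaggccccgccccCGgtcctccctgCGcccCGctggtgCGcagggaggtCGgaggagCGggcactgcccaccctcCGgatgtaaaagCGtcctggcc
Gramd2a: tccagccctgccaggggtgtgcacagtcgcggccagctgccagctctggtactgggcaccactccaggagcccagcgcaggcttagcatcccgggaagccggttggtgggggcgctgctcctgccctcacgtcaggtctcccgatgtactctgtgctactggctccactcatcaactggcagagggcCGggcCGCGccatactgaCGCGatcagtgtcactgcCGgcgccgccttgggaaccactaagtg

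The 8 CRL libraries held 35040331 to 67270604 CpG read counts. At the 484749 sites with 10 or more reads in every library of the table (common sites), the median depth per CRL rat was 24 to 44 reads. The shallowest rats were CRL_HS replicate 1 and CRL_LS replicate 4, at 25 and 24 reads. CRL_HS replicate 3 had reads at the fewest positions, 1399010 against 1564045 to 1902062 in the other CRL rats, although its median depth was 43 reads. Whether this property of the library bears on its levels was not tested. CRL_HS replicate 3 also stood apart at the ribosomal positions described below, and results that rest on it are given with and without it. CRL_LS replicate 3 carries the letters RP in its label, whose meaning the labels do not give.

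CpGs of intermediate methylation had a higher mean level on high salt than on low salt, and the difference did not pass the test. Sites were classed by their level in the 7 MCW rats, which the CRL comparison does not use. In the 89900 sites of 20 to 80%, the CRL_HS rats stood at 49.21, 48.59, 49.39 and 48.64% (replicates 1 to 4) and the CRL_LS rats at 47.71, 48.08, 48.10 and 48.76%. Only CRL_LS replicate 4 reached into the range of the high-salt rats. The means were 49.0% ± 0.404 and 48.2% ± 0.436 (SD, n = 4 each), a difference of 0.799 points (SE 0.297), with CRL_HS higher in 14 of 16 pairs of rats (exact permutation p = 0.0857, adjusted p = 0.257 over 3 classes). In the 323812 sites under 20% the groups had 1.48% and 1.47%, and in the 71037 sites over 80% they had 91.7% and 91.6%, with overlapping rats in both classes. The difference in the middle class exceeded the mean of the outer classes by 0.743 points (SE 0.223), in 15 of 16 pairs (exact two-sided permutation p = 0.0571, where 4 against 4 rats cannot go below 0.0286). With sites weighted by reads the differences were 0.798 points under 20%, 0.987 in the middle class and 0.326 over 80%, and the excess of the middle class was 0.424 points (exact permutation p = 0.314). Such weights favour deep positions, among them those near the ribosomal matches described below. Without positions within 200 kb of these matches, unweighted sites under 20% gave -0.0353 points (exact permutation p = 0.371). The middle class then gave 0.780 points (exact permutation p = 0.0857). MCW rats had 49.2% on high salt and 48.3% on low salt at the middle sites, and no class of sites differed in its diet effect between the colonies (exact permutation of diets within colony, smallest p = 0.122).

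**Figure D1:**
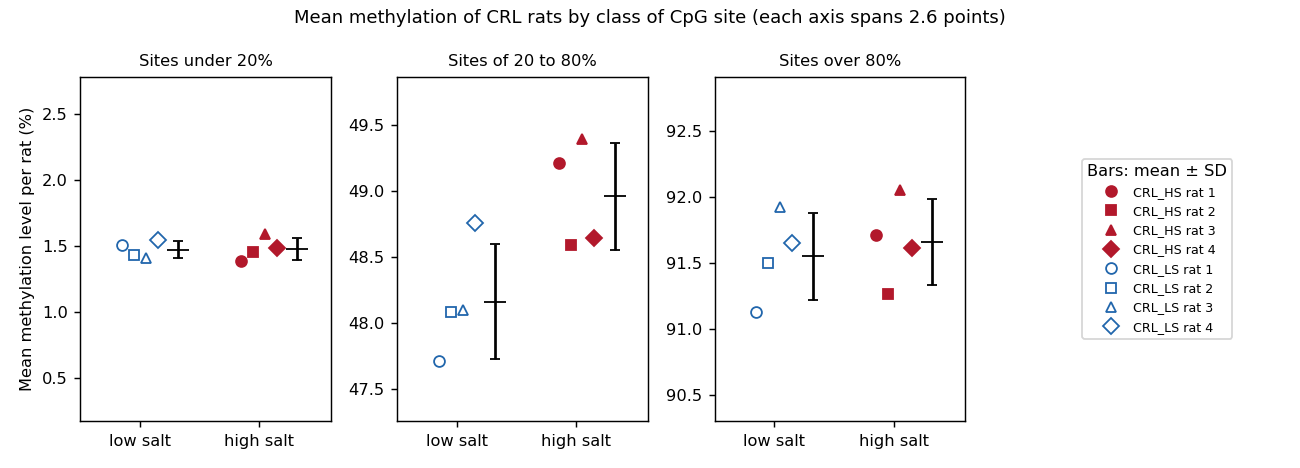
Mean methylation level of each CRL rat (y axis, %) in 3 classes of CpG sites set by the level in MCW rats, with low salt on the left and high salt on the right of each panel and the mean ± SD of 4 rats as bars. In the class of 20 to 80% the CRL_HS rats lie between 48.59 and 49.39% and the CRL_LS rats between 47.71 and 48.76%, and in the other classes the rats of both groups intermingle.

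Placed gene starts were almost unmethylated on both diets, and the small differences stood outside them. Placement needed at least 8 matched CpGs, so starts with fewer CpGs are not covered, and sites classed as distant may lie near such starts. Over the 52263 sites in the 500 bases before a placed start the CRL_HS rats averaged 1.06% ± 0.0501 and the CRL_LS rats 1.09% ± 0.0530 (SD, n = 4 each), and over the 79410 sites in the 500 bases after it the means were 0.891% ± 0.0523 and 0.938% ± 0.0617. Both differences were within the spread of the rats. Between 2 and 5 kb after the start, inside many genes, CRL_HS rats stood at 31.53, 31.66, 31.65 and 31.51% and CRL_LS rats at 31.16, 31.19, 31.25 and 31.41%. The groups did not overlap there, although the difference was 0.335 points (SE 0.0663). From 5 to 20 kb after the start it was 0.223 points (SE 0.0872), again with every CRL_HS rat above every CRL_LS rat, the nearest both at 35.30%. Each of these 2 windows had the smallest p the design allows (exact permutation p = 0.0286) and an adjusted p of 0.157 over 11 distance classes. With at least 20 reads the groups overlapped in both windows. The difference was then 0.350 points from 2 to 5 kb (exact permutation p = 0.0571) and 0.103 points from 5 to 20 kb (exact permutation p = 0.229). From 5 to 20 kb they also overlapped without positions of equal counts. The same held there with 10 reads asked of the 8 CRL libraries only (0.186 points, exact permutation p = 0.0571). When weighted by reads they overlapped in both windows (0.593 and 0.613 points, exact permutation p = 0.343 and 0.371). Before the start, from 20 to 5 kb, the difference was 0.203 points (SE 0.106) with 14 of 16 pairs higher (exact permutation p = 0.114).

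**Figure D2:**
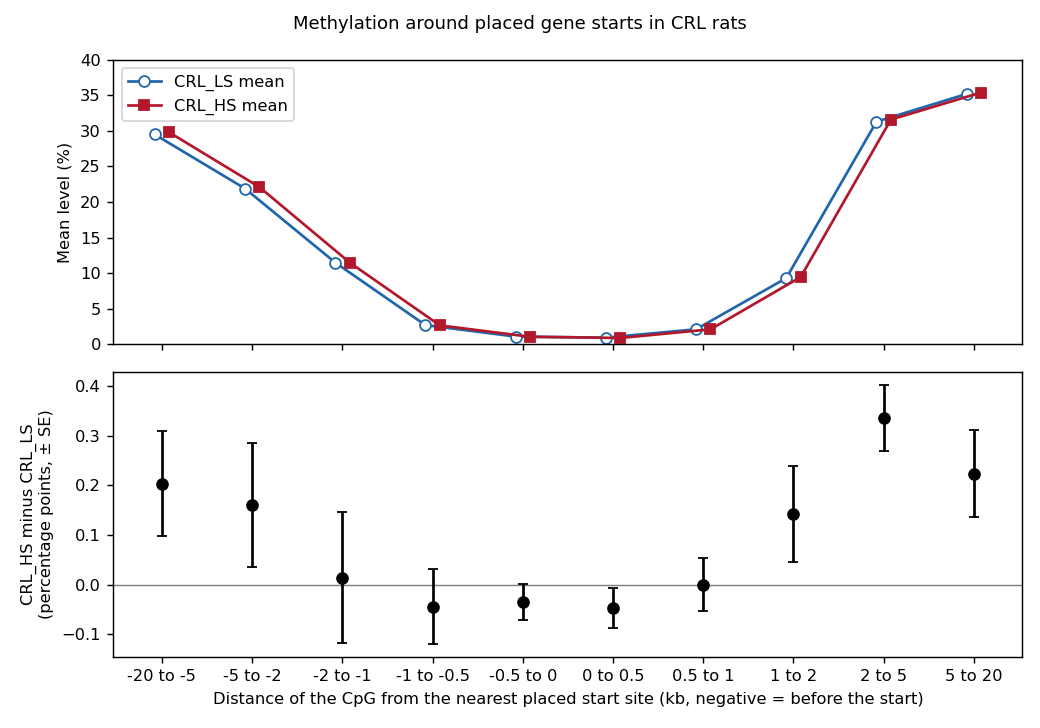
Mean level of CpGs by distance from the nearest placed gene start (x axis, kb): the group means in % above, and CRL_HS minus CRL_LS in percentage points with its SE over 4 rats a group below. The level falls to 0.891 and 0.938% just after the start in CRL_HS and CRL_LS, and the difference is largest, at 0.335 points, from 2 to 5 kb after the start.

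On 21 of 21 chromosomes the high-salt rats had the higher mean level (15 of 21 when sites were weighted by reads), by 0.0573 points on chromosome 18 to 0.475 on chromosome 14. Chromosome 10 had the lowest level, 18.5% in CRL_HS and 18.4% in CRL_LS, and the X chromosome the highest, 40.4% ± 0.266 and 40% ± 0.256 (SD, n = 4 each). On chromosome 14 the level of CRL_HS replicate 3 was 23.23%, and the other CRL_HS rats stood at 21.96 to 22.22%. Without that rat the difference on chromosome 14 was 0.194 points (exact permutation p = 0.229). This chromosome also holds some of the ribosomal matches described below. With all rats but without positions within 200 kb of such a match, its difference was 0.167 points (exact permutation p = 0.229). Without sites over 5 times the median depth it was 0.204 points (exact permutation p = 0.171). Chromosome 19 was the 1 chromosome whose groups did not overlap, with 23.55 to 23.69% in CRL_HS and 23.35 to 23.55% in CRL_LS, so that they nearly touched (exact permutation p = 0.0286, adjusted p = 0.267 over 21 chromosomes). The chromosomes share their rats, so the common direction is 1 observation of 8 rats and not of 21 chromosomes. Over all common sites the difference was 0.168 points (SE 0.0987, exact permutation p = 0.143). It was 0.0979 points without CRL_HS replicate 3 (exact permutation p = 0.286) and 0.850 points with sites weighted by reads (p = 0.20, exact permutation).

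Regions were tested in windows of 500 bp (bins) that held 3 or more common sites and had a pooled level of 5 to 95%. No bin among 28039 passed the limma-moderated quasi-binomial test, so 0% were called, with 1661 bins (5.92%) at an unadjusted p under 0.05 and a smallest adjusted p of 0.626. Limma on log ratios also called 0 bins, with 1583 at an unadjusted p under 0.05. Of the bins at an unadjusted p under 0.05, 1162 had the higher level on high salt and 499 the lower. The mean over the bins tested was 63.4, 62.9, 63.7 and 63.1% in the CRL_HS rats and 62.3, 62.6, 62.7 and 63.2% in the CRL_LS rats. That is a difference of 0.580 points (SE 0.254, exact permutation p = 0.0857), and again CRL_LS replicate 4 overlapped the other group. Differences of more than 10 points were found in 662 bins toward higher and in 286 toward lower levels on high salt, and the median absolute difference was 2.06 points against a median SE of 2.84.

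All CRL_HS rats lay above all CRL_LS rats in 557 bins (1.99%) and below them in 303 bins (1.08%), together 860 bins (3.07%). With diets assigned at random, 4 against 4 rats would separate without overlap at a rate of 0.0286, close to this total. The balance by the mean level of the bin is given as counts, and differences between the level classes were not tested. Of 2280 bins of 5 to 20% mean level, 50 were higher and 23 lower without overlap. Of 2096 bins of 20 to 40% these counts were 59 and 18, and of 4469 bins of 40 to 60% they were 97 and 32. In the largest class, 13192 bins from 60 to 80%, they were 239 and 155. Of 5911 bins from 80 to 95% they were 110 and 75. Bins with a placed gene start within 1 kb split into 11 higher and 10 lower of 478, and those over 100 kb from one into 304 and 160 of 15320. Neighbouring bins and bins of repeats share reads or fragments, so these counts are descriptions. None of these bins lay within 200 kb of the ribosomal positions, where 229 bins were tested.

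**Figure D3:**
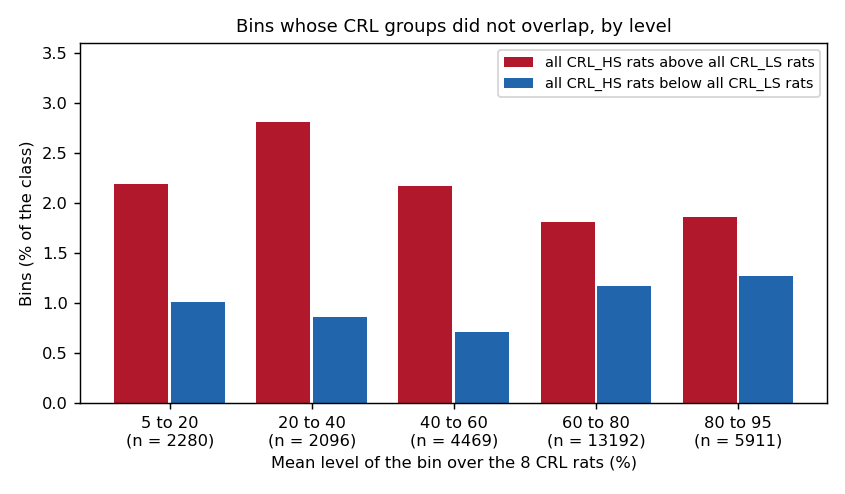
Share of tested bins (y axis, % of the bins in a class) in which all 4 CRL_HS rats lay above (red) or below (blue) all 4 CRL_LS rats, by the mean level of the bin over the 8 rats (x axis, %). The shares are 2.81% above against 0.859% below at 20 to 40%, and 1.86% against 1.27% at 80 to 95%.

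The MCW rats were also looked up at the bins whose CRL groups did not overlap. With the CRL_LS mean of each bin set to 0 and the direction of the CRL difference taken as positive, the CRL_HS rats averaged 7.26 to 8.16 points by the choice of bins. The MCW_HS rats averaged 3.78 to 4.97 points and the MCW_LS rats 3.72 to 4.45 points. Values between the CRL groups follow from the choice of bins and are no result, and the ranges of the MCW diets overlapped. The CRL_HS mean was the nearer of the CRL groups to the MCW mean at 440 of these 860 bins (51.2%), against 49.9% of all bins tested. The diet difference of MCW rats had the same sign as that of CRL rats at 441 of the 860 bins (51.3%) and at 52.0% of all bins. Across the 28039 bins the differences of the colonies had a Pearson r of 0.0516 and a Spearman rho of 0.0470, as a description in which neighbouring bins are not independent.

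Of the bins without overlap, the 12 with the smallest p in each direction are described next. They were chosen on this contrast, so their differences are descriptions, and each had an adjusted p of 0.626. Among those higher on high salt the differences ran from 8.25 to 21.9 points, and 77 of their 89 CpGs had the higher mean on high salt. A placed gene start within 100 kb was found for 13 of the 24, and the nearest gene may be one that was not placed.

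The bin with the smallest p, chr6:137744501-137745000 (6 CpGs), lies 19454 bases after the start of Clmn, which encodes the membrane protein calmin. CRL_HS rats had 47.2, 52.1, 51.2 and 43.0% and CRL_LS rats 23.0, 26.6, 27.2 and 37.2%, at 89 to 276 reads a rat. The groups did not overlap, CRL_LS replicate 4 was the nearest to the high-salt rats, and each of the 6 CpGs had the higher mean on high salt. At chr10:89307001-89307500 (5 CpGs, 24520 bases after the start of Tmem106a) the levels were 20.1, 25.1, 21.5 and 22% against 11.8, 13.1, 11.4 and 16.4%. MCW rats had the opposite order there, with 17.4% ± 2.27 on high salt (SD, n = 4) and 22.1% ± 3.38 on low salt (n = 3). The difference between colonies did not pass (adjusted interaction p = 0.694 over 28130 bins, limma-moderated quasi-binomial model). A bin before the start of Fcgr2a, a receptor for IgG on myeloid cells, at chr13:95714001-95714500 (6 CpGs, 33795 bases away) had 71.4, 75.5, 69.8 and 70.4% against 56.3, 53.8, 59.7 and 64.0%. The SD was larger in the low-salt than in the high-salt rats in each of these 3 bins.

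On chromosome 19 (chr19:23752501-23753000, 3 CpGs), with no placed start within 100 kb, CRL_HS rats had 66.7, 66.2, 66.2 and 60.6% and CRL_LS rats 39.4, 44.4, 47.7 and 45.0%. This difference of 20.8 points (SE 2.26) rests on 40 to 157 reads a rat. A low-level bin, chr6:146737001-146737500 (4 CpGs), lies 3824 bases after the start of Nudt14, which encodes a hydrolase of UDP-sugars. It had 23.8, 17.5, 20.9 and 16.5% on high salt and 5.49, 10, 6.84 and 6.48% on low salt. The MCW means, 11.1% ± 3.61 and 9.05% ± 2.24, were nearer to the low-salt CRL rats, which was so at 2 of these 12 bins. The CRL_HS mean was the nearer to the MCW mean at 10 of these 12 bins and at 3 of the 12 lower ones. That is 13 of the 24 named bins, against 49.9% of all bins tested. The bin with the most CpGs, chr11:73369501-73370000 (21 CpGs, 40493 bases after the start of Heg1, a receptor of endothelial junctions), had 40.9, 40.5, 42.5 and 42.9% against 30, 29.0, 35 and 29.5%. There 15 of the 21 CpGs had the higher mean on high salt, at 313 to 769 reads a rat. Among the other 6 bins, 1 lies 16982 bases before the start of Fgf14, which encodes a modulator of sodium channels, with 65.4% ± 1.36 and 57.2% ± 2.13 (SD, n = 4 each).

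The 12 bins lower on high salt had differences of 3.45 to 24.8 points, and 60 of their 65 CpGs had the lower mean. The first, chr16:83017001-83017500 (5 CpGs), lies 29145 bases after the start of Col4a1, a collagen of basement membranes. Its levels were 18.2, 10.3, 8.81 and 14.9% in CRL_HS and 19.6, 31.1, 31.2 and 23.0% in CRL_LS. The separation is narrow, since replicate 1 of each group lay close to the other. MCW rats had 24.7% ± 4.93 on high salt and 16.6% ± 9.60 on low salt (adjusted interaction p = 0.816, limma-moderated quasi-binomial model). At chr2:45212501-45213000 (4 CpGs, no placed start) CRL_HS rats had 33.0, 34.3, 34.4 and 39.3% and CRL_LS rats 58.9, 53.3, 46.8 and 46.8%. MCW rats had the opposite order there, with 51.8% ± 8.06 on high salt and 32.8% ± 4.19 on low salt (adjusted interaction p = 0.694, limma-moderated quasi-binomial model). Rats of the second experiment had the order of the CRL rats, with 53.5% on high and 64.3% on low salt over 2 CpGs. In chr10:101178001-101178500 (5 CpGs) CRL_HS rats had 88.6, 80, 88.5 and 93.8% and CRL_LS rats 98.0, 96.8, 97.6 and 96.6%. The low-salt rats were there nearly fully methylated, and the high-salt rats were spread, with CRL_HS replicate 2 the lowest.

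The bin that holds the start of Ndn, chr1:124119001-124119500 (6 CpGs), was among the lower ones. Ndn encodes necdin and is imprinted, with expression from the paternal copy. CRL_HS rats had 11.8, 9.89, 11.9 and 12.8% and CRL_LS rats 17.5, 25.6, 17.4 and 24.4%, at 93 to 333 reads a rat. All 6 CpGs had the lower mean on high salt, the bin differed by -9.64 points (SE 2.26), and the MCW rats stood between the groups at 17.7% ± 3.38 and 15% ± 2.55. A bin 44160 bases after the start of Ddah1, the enzyme that degrades the nitric oxide synthase inhibitor dimethylarginine, showed the largest of the 24 differences. At chr2:270205001-270205500 (5 CpGs) CRL_HS rats had 28.4, 33.9, 24.6 and 13.9% and CRL_LS rats 44.0, 60.2, 53.8 and 41.9%. It rests on 74 to 134 reads a rat, and the MCW rats covered 23.3 to 58.4%, values found in both CRL groups. On chromosome 4 (chr4:190441501-190442000, 4 CpGs, no placed start) the levels were 8.33, 18.8, 21.7 and 15.9% against 35.7, 28.8, 37.8 and 30.6%. The MCW means, 17.9% and 29.0%, had the same order of diets there, as at 6 of these 12 bins and 9 of the 12 higher ones.

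The bin over the start of Tbx1, chr11:89653501-89654000 (17 CpGs), held the sequence shown above. CRL_HS rats had 32.4, 31.9, 31.7 and 30.5% and CRL_LS rats 37.5, 42.6, 38.5 and 35.3%. The high-salt rats lay close together and the low-salt rats were spread, and the group difference was -6.88 points (SE 1.58) at 476 to 858 reads a rat. Of the 8 measured CpGs before the start, the last 3 had the largest negative differences, with 50 against 59.1%, 17.8 against 24.1% and 33.1 against 42.5%. Of the first 4, 3 had the higher mean on high salt. In the second experiment of the series, with other libraries of MCW SS rats in a table of their own, the level of this bin was 33.7% ± 6.31 in rats on 4% NaCl for 7 days with a scrambled oligonucleotide and 31.0% ± 2.34 in rats on 0.4% NaCl (SD, n = 4 each). Of the 24 bins 10 had the same sign there, and 15 of 24 in MCW rats of the first table.

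**Figure D4:**
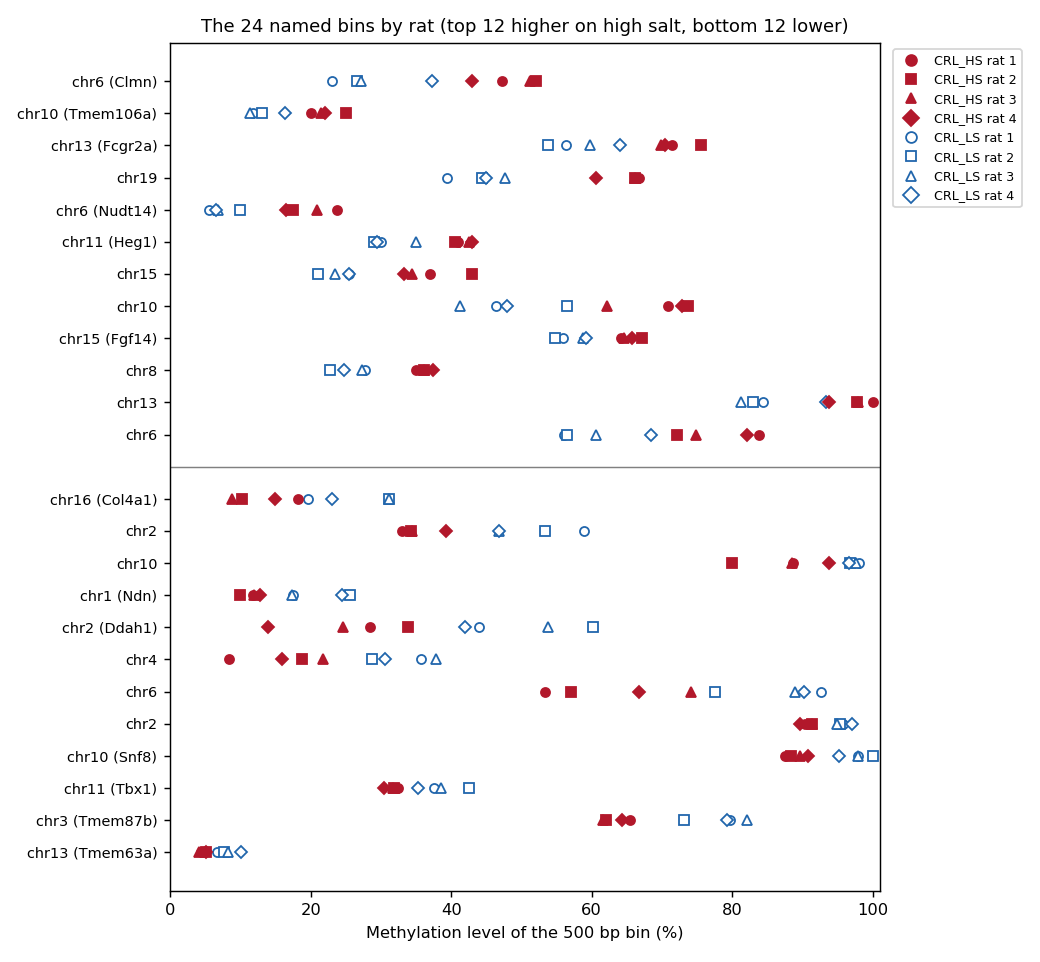
Methylation level (x axis, %) of each CRL rat in the 24 named bins, labelled by chromosome and, in brackets, the nearest placed gene start within 100 kb, with high-salt rats filled and low-salt rats open. The rats of the groups do not overlap in any row by the rule of choice, and the gap between groups is narrow in several rows, such as Col4a1 with 18.2 against 19.6%.

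Placed promoters with at least 3 common sites were measured for 5010 genes, and 4541 of them (90.6%) had a mean level under 1%. Since placement needed at least 8 matched CpGs, promoters with fewer CpGs are not covered by this share. Averaged over promoters, CRL_HS rats had 1.52% ± 0.0592 and CRL_LS rats 1.55% ± 0.0514 (SD, n = 4 each; difference -0.0298 points, exact permutation p = 0.457). Of the 160 promoters with a pooled level of 5 to 95%, 0% were called in the limma-moderated quasi-binomial fit, where the smallest adjusted p was 0.113. There were 17 promoters (10.6%) with an unadjusted p under 0.05, 12 higher and 5 lower on high salt, and the groups did not overlap at 6 (3.75%), 2 higher and 4 lower. The genes named from here on were chosen after their values were seen.

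The Gramd2a promoter had 9.25, 21.2, 27.5 and 24.7% in CRL_HS and 12.1, 12.9, 4.50 and 10.9% in CRL_LS, a difference of 10.6 points (SE 4.45, adjusted p = 0.245 in the limma-moderated quasi-binomial model). CRL_HS replicate 1 lay among the low-salt rats, and without it this promoter and that of LOC134482444 passed (adjusted p = 0.0443 for both, same model). That rat was the lowest CRL_HS rat at both promoters, so leaving it out raises the difference, and nothing is read from the pass. The LOC134482444 promoter has 3 common CpGs and had an adjusted p of 0.113 with all rats in that model. Each of the 6 measured CpGs in the Gramd2a sequence shown had the higher mean on high salt, by 4.76 to 14.5 points. Gal3st1 encodes the sulfotransferase that makes sulfatide, a sphingolipid abundant in the kidney. Its 9 common CpGs, all after the start, had 18.2, 13.4, 11.0 and 14.8% on high salt and 1.18, 3.06, 9.57 and 5.92% on low salt. The groups did not overlap, with a difference of 9.42 points (SE 2.36, adjusted p = 0.268, limma-moderated quasi-binomial model), and the MCW means, 12.5% on high and 14.0% on low salt, were nearer to the high-salt CRL rats. Znrf4, a ubiquitin ligase gene, had 52.1% ± 4.58 against 43.2% ± 4.69 without overlap. Fbxl18, which encodes an F-box protein, had 13.9% ± 2.32 against 18.4% ± 1.76 without overlap in the other direction (SD, n = 4 each; adjusted p = 0.327 for both in the same limma-moderated model).

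Genes of salt transport, the renin-angiotensin-aldosterone system, oxidative stress and nitric oxide, DNA methylation and imprinting were looked up next, 93 in all. Of these 29 had a placed promoter, 13 were measured at 3 or more common sites, and 12 of the 13 had a level under 2%. Among them were Slc12a2, a sodium-potassium-chloride transporter (0.204% in CRL_HS and 0.282% in CRL_LS), the potassium channel gene Kcnj10 (1.16% and 2.75%), the kinase gene Wnk4 (0% and 0.760%), Nedd4l, a ubiquitin ligase of sodium channels (0.0860% and 0.230%), and Nox4, an oxidase that makes hydrogen peroxide (1.62% in both). The exception was Igf2r, an imprinted gene, with 39.7% ± 2.18 and 42.4% ± 6.31 over 20 CpGs. From 2 kb before to 1 kb after the starts of the listed genes 5 bins were tested. Of these 4 were at imprinted genes and 1 at Ace, and 2 had an unadjusted p under 0.05, against 5.92% of all bins. They were the Ndn bin above and a bin of Gnas, the imprinted locus of a G protein subunit. At Gnas, chr3:178471501-178472000 (15 CpGs), the level was 57.2% ± 6.99 in CRL_HS and 44.9% ± 7.04 in CRL_LS (adjusted p = 0.768, limma-moderated quasi-binomial model, n = 4 each), and the next bin had 48.7% ± 8.94 and 45.0% ± 8.24. Ace, the angiotensin-converting enzyme gene, had 84.3% ± 1.83 and 81.1% ± 4.75 in a bin before its start and 0.414% and 0.115% in the promoter.

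Among 163017 CpGs tested one by one, 24 passed, all higher on high salt (0.0147% called higher and 0% lower, limma-moderated quasi-binomial model), with 12075 sites (7.41%) at an unadjusted p under 0.05. Limma on log ratios and edgeR called 0 sites, with 9282 and 7732 at an unadjusted p under 0.05. The 24 positions held 6 patterns of levels, because most were copies of each other to within 2 points in every rat. Of these, 23 positions with 5 patterns lay within 200 kb of a place where all 25 CpGs of the RefSeq start window of Rn45sl1 occur at their exact spacing, and 1 position, on chromosome 9, lay elsewhere. Such places were 6, on 4 chromosomes: chr1:13501507-13501806, chr1:13557781-13558080, chr5:95172625-95172924, chr6:39273284-39273583, chr14:46822338-46822637 and chr14:46861069-46861368. Ribosomal RNA genes are repeated many times in the genome, and a read from one copy cannot be assigned to 1 of these places. The 23 positions are therefore not independent of each other.

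The deep positions near these places (7058 sites over 5 times the median depth) took 37.1 to 43.3% of all CpG read counts in CRL_HS rats and 37.5 to 40.5% in CRL_LS rats. Their mean level was 12.2, 14.4, 17.8 and 11.6% in the CRL_HS rats and 11.9, 11.4, 11.4 and 13.5% in the CRL_LS rats. CRL_HS replicate 3 was the highest, and CRL_HS replicate 4 lay among the low-salt rats. The difference was 1.96 points (SE 1.49, exact permutation p = 0.20), and without CRL_HS replicate 3 it was 0.687 points. MCW rats ranged from 6.04 to 15.6% on high salt and from 6.11 to 15.2% on low salt.

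CRL_HS replicate 3 was the highest of the 8 rats at each of the 24 called positions. At 8 positions of 1 pattern, such as chr1:13559018, the CRL_HS rats had 18.4, 21.1, 41.2 and 11.0% and the CRL_LS rats 10.2, 8.13, 9.36 and 18.1%. At 7 positions of another, such as chr1:13560161, they had 35.9, 35.7, 58.2 and 29.5% against 29.0, 23.6, 24.4 and 29.5%. In both patterns replicate 3 stood far above the other high-salt rats. CRL_HS replicate 4 lay among the low-salt rats in the first and just above them, without overlap, in the second. A pattern of 4 positions, such as chr1:13554770, had 75.0, 68.8, 80.3 and 53.8% against 16.7, 32.4, 42.1 and 50%. It rests on few reads outside CRL_HS replicate 3, with 72, 96, 436 and 26 in the CRL_HS rats and 12, 37, 38 and 32 in the CRL_LS rats. A pattern of 3 positions, such as chr14:46694293, had 10.8, 13.2, 26.5 and 5.42% against 5.35, 4.52, 4.81 and 5.01%. Groups were separate at 15 called positions, which are those of the last 3 patterns and the chromosome 9 site, although at chr14:46694293 CRL_HS replicate 4 lay close to the low-salt rats. In the Rn45sl1 sequence shown above, the first 6 capital CpGs had 27.3 to 41.5% in CRL_HS replicate 3, 8.12 to 25.5% in the other CRL_HS rats and 7.85 to 23.5% in the CRL_LS rats, at 47 reads or more. At the next 6, with 3026 reads or more, the excess was smaller, such as 17.2% in replicate 3 against 12.8 to 14.1% in the other CRL_HS rats at the first of them. At the last 2 replicate 3 was not the highest rat, with 6.51% at the one and 0%, the lowest of the 8 rats, at the other. Without CRL_HS replicate 3 no site passed in the limma-moderated quasi-binomial fit (9569 at an unadjusted p under 0.05; the lowest adjusted p was 0.106), and no site passed without CRL_LS replicates 1 or 2 either.

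**Figure D5:**
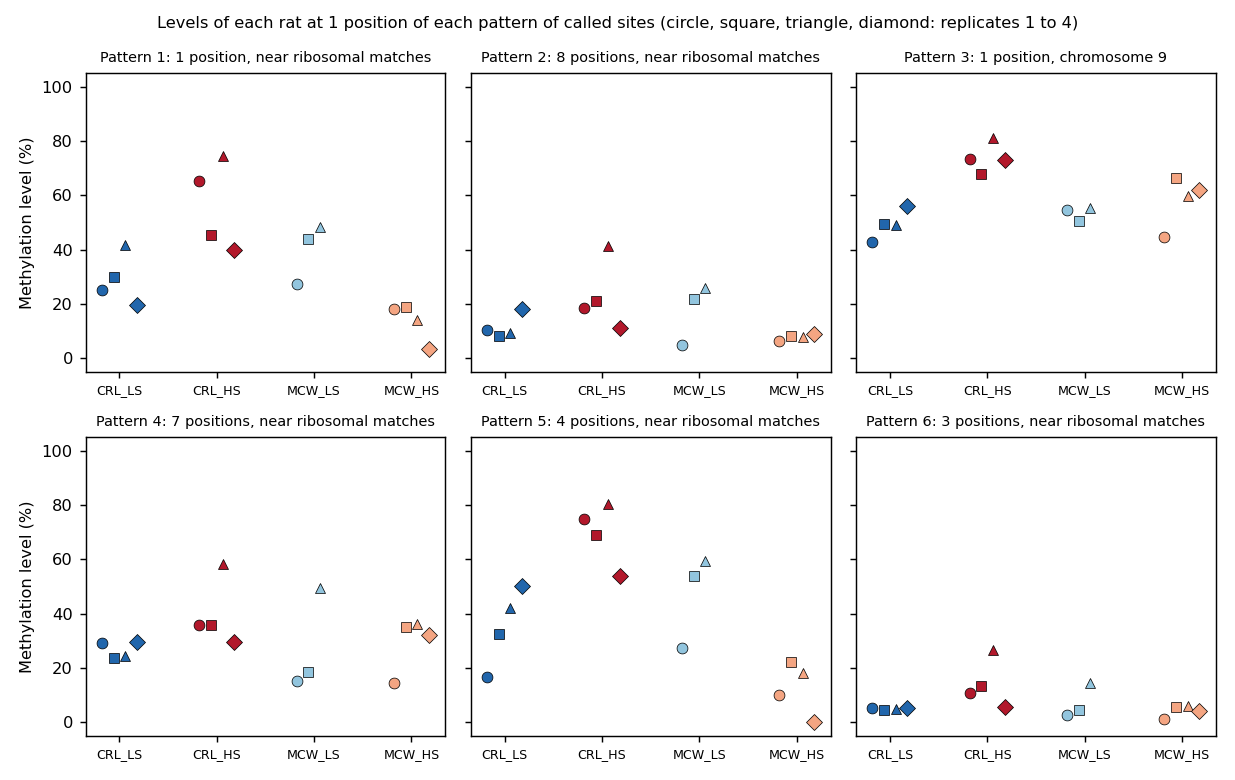
Methylation level (y axis, %) of each rat of the first table at 1 position of each of the 6 patterns of called sites, by group (x axis), with replicates 1 to 4 as circle, square, triangle and diamond. The triangle of CRL_HS, replicate 3, is the highest CRL rat in every panel, at 74.5% in the first and 26.5% in the last.

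The diet difference itself differed between the colonies at 149 of 164329 sites (0.0907%) and at 13 of the 24 called ones, which were chosen with the same CRL values, so that nothing is read from their share.

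The called site outside the ribosomal positions, chr9:6514044, had 73.3, 67.7, 81.3 and 72.9% in CRL_HS and 42.9, 49.3, 49.1 and 55.9% in CRL_LS, at 68 to 182 reads a rat. The groups did not overlap, and CRL_HS replicate 3 was the highest rat. The means were 73.8% ± 5.61 and 49.3% ± 5.32 (SD, n = 4 each), a difference of 24.5 points (SE 3.86, adjusted p = 0.0383, limma-moderated quasi-binomial model), and MCW rats had 58.2% on high salt and 53.5% on low salt. The call was lost without CRL_HS replicate 3 (adjusted p = 0.563) or without CRL_LS replicates 1, 2 or 3 (adjusted p = 0.119, 0.165 and 0.262), while the difference stayed between 22 and 26.7 points in each leave-out. All 24 called sites shared the adjusted p of 0.0383. Without positions within 200 kb of a ribosomal match, the adjusted p of this site was 0.125 in the same limma-moderated model, and with at least 20 reads it was 0.0535. Nearby CpGs differed in the same direction at several places. At chr9:6514050, 6 bases on, the means were 47.7 and 30.2%. Further on, chr9:6514663 had 24.6, 17.1, 24.9 and 11.2% against 6.36, 1.19, 3.99 and 9.43%, and chr9:6514670 had 16.9, 22, 27.0 and 20.2% against 8.04, 5.95, 7.24 and 11.1%. The groups did not overlap at these 2 CpGs, with MCW means of 17.3 and 11.8% at the first and 18.6 and 14.9% at the second. Rats of the second experiment had the opposite order at both. Their means were 22.1% on high and 31.6% on low salt at the first, and 21.8% and 35.4% at the second. Some nearby CpGs were lower in CRL_HS, by -2.39 points at chr9:6513054, -2.66 at chr9:6513077 and -2.29 at chr9:6513155.

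The rats differed from each other nearly as much within a diet as between diets. The mean absolute difference of bin levels was 5.6 points between rats of different diets and 5.53 points between rats of 1 diet (exact permutation p = 0.0571 for the difference of 0.0733). That difference was 0.0124 to 0.180 points with 1 rat left out, lowest without CRL_LS replicate 1 (exact permutation p = 0.886). CRL_HS replicate 3 was the farthest from the other 7 rats, at 5.90 points, and CRL_LS replicate 3, the deepest library, was the nearest, at 5.21. The median SD over 4 rats was 3.77 points in CRL_HS and 3.62 in CRL_LS. At 3632 common sites (0.749%) the 8 rats spanned 60 points or more, and at 135 of these the groups did not overlap. Most were shallow: the rat with the fewest reads had a median of 12 reads, and 261 of the 3632 sites had 20 or more reads in every CRL rat. CRL_HS replicate 3 was most often the highest rat at these sites (897) and also most often the lowest (658).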

How the data were processed

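The authors deposited, per the file headers, the count of C reads and the count of T reads at each CpG position for each rat, with no normalization. The positions are in rn5 and reads were trimmed with Trim Galore 0.2.5, per the submitters' processing notes; the aligner was not given in the sources used here. Sites with 10 or more reads in all 15 libraries of the table were kept, 484749 of 2852395 positions. Sites and 500 bp bins with a pooled level of 5 to 95% were tested on the counts with a quasi-binomial model whose dispersion, at least 1, was moderated by limma 3.58.1 (R 4.3.3), with Benjamini-Hochberg adjustment and a threshold of 0.05. Means per rat were compared with exact two-sided permutation tests. The fits were tested on simulated data. edgeR 4.0.16 and limma on log ratios were alternatives.

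Members, lists and tests were chosen with earlier results of these data known. The named bins are, per direction, the 12 with the smallest p whose groups do not overlap, near-identical bins counted once. With no rn5 annotation used here, RefSeq (GRCr8) promoter sequences were placed by the spacing of at least 8 CpGs, a step chosen after seeing the data, as was the grouping of called sites into patterns. Of 33469 sequences 15918 had enough CpGs and 9765 were placed, 94.4% on the chromosome RefSeq gives, and 8501 were kept for 7746 gene symbols. Each library is 1 rat, and intervals of counting error are not given because reads without molecular identifiers are not independent molecules.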

Additional observations from a re-analysis of the deposited data

Results flagged for a closer look

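In 162 groups of 4 rats, 5 had a rat far from the others, where chance gives about 1 group in 20. CRL_LS replicate 4 was high in mean level on chromosome 6 (23.0%, the others 22.7%), on chromosome 10 (18.6%, the others 18.4%) and from 1000 to 500 bases before gene starts (2.87%, the others 2.64 to 2.65%). In the bin chr19:23752501-23753000, CRL_HS replicate 4 was low at 60.6%, with the others at 66.2 to 66.7%. In the bin chr11:73369501-73370000, CRL_LS replicate 3 was high at 35%, with the others at 29.0 to 30%.

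The diet difference of the CRL rats and that of the MCW rats were compared by the interaction in the limma-moderated quasi-binomial model, which passed at 149 of 164329 sites. Among them are 3 of the 6 patterns of called sites. These were chosen for a CRL difference, and the interaction uses the same CRL values, so it is given as a description. The adjusted interaction p was 2.72e-04 at chr1:13561020, 0.0187 at chr1:13559018 and 4.71e-04 at chr1:13554770. All 3 lie near ribosomal matches, where CRL_HS replicate 3 is the highest CRL rat, and the part of that rat in the difference between colonies was not tested.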

How the results depend on the processing

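The 24 called sites depended on the libraries and settings: the count was 0 to 323 when 1 CRL rat was left out, with 0 without CRL_HS replicate 3, CRL_LS replicate 1 or CRL_LS replicate 2, 1 when CRL_LS replicate 3 was left out, and for CRL_HS replicates 1, 2 and 4 it was 41, 56 and 323. It was 0 with at least 20 reads (5211 at an unadjusted p under 0.05), with no filter on level (15781), with limma on log ratios (9282), with edgeR (7732) and with all 15 libraries in the fit (10300), and 1 without sites over 5 times the median depth. Leaving out positions within 200 kb of a ribosomal match, an alternative chosen after seeing the data like those of the next 2 sentences, gave 0 (10816). Bins without overlap numbered 933 to 1159 higher and 609 to 701 lower with 1 rat left out, where fewer rats must separate. They were 211 and 104 with at least 20 reads and 237 and 116 with at least 5 sites a bin, and 622 lower with no filter on level. Promoters called numbered 0 to 2 with 1 rat left out, 2 without CRL_HS replicate 1, and the distance between diets exceeded that within by 0.0818 points with at least 20 reads (exact permutation p = 0.0286), and by 0.0124 to 0.180 with 1 rat left out.

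Differences near 0 changed sign. Sites under 20% ran from -0.0289 to 0.0388 points and sites over 80% from -0.0366 to 0.235 with 1 rat left out. Sites under 20% gave -0.00803 without positions of equal counts, -0.0341 without deep sites and -0.0353 without ribosomal positions, and bins of 20 or more sites gave -0.0132 and -0.00734 in the last 2 settings. The first 500 bases after a start gave 0.00887 points when weighted by reads, and the Igf2r promoter 3.57 with at least 20 reads. The cause was not tested. The middle class stayed positive at 0.647 to 0.997 points with 1 rat left out, and 0 bins were called under every alternative run.

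Replicate numbers do not pair the rats: deviations of same-numbered rats correlated at -0.00229, 0.00297, -0.00175 and 0.0176, and only replicate 4 correlated best with its own number. With the replicate block 0 sites were called (10121 at an unadjusted p under 0.05) and 0 bins (1669), the chromosome 9 site had an adjusted p of 0.779, and the difference over all sites was 0.168 points (exact sign-flip permutation p = 0.250, where 4 pairs cannot go below 0.125). Depth limits single sites, with a median of 24 reads in the shallowest rat.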
